A study of Mus musculus with 9 samples.

Results

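Extracellular nucleotides and adenosine are read by a small set of receptors, and 8 genes of that system were followed here among the 55367 gene symbols of each count file. They were taken by symbol from all 9 count files: the ATP-gated channel genes P2rx1, P2rx4 and P2rx7, the nucleotide receptor genes P2ry6 and P2ry12, the adenosine receptor genes Adora2a and Adora2b, and Entpd1, which encodes the ectonucleotidase CD39. All 8 had counts in every library and all 8 passed the filter on low counts. Monocytes of adult mice had been kept for 4 h with a buffer, which is the control, with platelets of adult mice, or with P7 platelets, and were washed before their RNA was taken. P7 usually stands for postnatal day 7. Each group holds 3 libraries of poly(A) RNA, 9 in all. No source used here gives the strain or sex of the mice, the number of platelets added or the way the monocytes were isolated.

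Platelets and stressed cells release ATP and ADP, and 2 families of surface proteins sense them. P2X receptors are cation channels that ATP opens, while P2Y receptors are G protein-coupled receptors for ADP, UDP and related nucleotides. CD39 cuts ATP and ADP down to AMP, CD73 turns AMP into adenosine, and adenosine then acts on its own G protein-coupled receptors, of which those encoded by Adora2a and Adora2b raise cAMP and restrain inflammatory output in macrophages. P2rx1 and P2ry12 are also well known as receptors of platelets, so a library of monocytes that had been with platelets can hold their mRNA from either cell.

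On the reference annotation GENCODE M21 (GRCm38), P2rx7 lies on chromosome 5 at 122643911 to 122691432 and P2rx4 follows on the same strand at 122707544 to 122729738, 16.1 kb further on. P2rx1 lies on chromosome 11 at 72999103 to 73015200 and P2ry12 on chromosome 3 at 59216272 to 59262871, on the minus strand and inside the span of Med12l, which runs on the opposite strand. Med12l had 9 to 34 counts per library, and the sources used here do not say whether the counting used strand. Adora2a lies on chromosome 10 at 75316877 to 75334784, Adora2b on chromosome 11 at 62248984 to 62266453, P2ry6 on chromosome 7 at 100937630 to 100974649 and Entpd1 on chromosome 19 at 40612366 to 40741602. RefSeq promoter windows (GRCm38.p6) were at hand for 6 of the 8 genes, all but P2ry6 and Adora2a. Shown are 4 of them, 200 bases each and ending 50 bases before the RefSeq start site: the neighbours P2rx7 and P2rx4, whose transcript levels parted, and the pair known from platelets, P2rx1 and P2ry12, whose levels were ordered differently. Each is written from 5′ to 3′ on the strand of its gene, and capitals mark a match to 1 of 6 short motifs searched on both strands.
P2rx7, chr5:122643677-122643876, plus strand: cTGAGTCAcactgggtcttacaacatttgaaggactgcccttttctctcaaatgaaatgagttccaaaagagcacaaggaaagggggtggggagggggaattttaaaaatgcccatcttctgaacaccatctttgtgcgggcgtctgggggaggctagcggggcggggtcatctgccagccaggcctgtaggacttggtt
P2rx4, chr5:122707294-122707493, plus strand: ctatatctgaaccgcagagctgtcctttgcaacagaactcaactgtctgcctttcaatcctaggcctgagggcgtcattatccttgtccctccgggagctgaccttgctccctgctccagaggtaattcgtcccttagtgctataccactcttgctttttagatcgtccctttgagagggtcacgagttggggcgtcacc
P2rx1, chr11:72998895-72999094, plus strand: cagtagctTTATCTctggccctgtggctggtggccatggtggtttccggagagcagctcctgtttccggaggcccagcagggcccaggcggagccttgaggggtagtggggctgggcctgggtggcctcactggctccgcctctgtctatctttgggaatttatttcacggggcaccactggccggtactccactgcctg
P2ry12, chr3:59263036-59263235, minus strand: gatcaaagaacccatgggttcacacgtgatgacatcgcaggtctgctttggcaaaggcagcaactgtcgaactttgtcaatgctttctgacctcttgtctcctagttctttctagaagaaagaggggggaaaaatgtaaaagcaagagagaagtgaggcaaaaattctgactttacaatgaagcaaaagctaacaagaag

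The motifs were GGANTTTCC (a form of the NF-kB site), GAAANNGAA (a form of the interferon-stimulated response element), TGACGTCA (the cAMP response element), TGANTCA (AP-1), GAGGAAGT (a form of the PU.1 site) and AGATAA (the site of GATA factors). Of 32851 RefSeq promoter windows of 300 bases, 1.25, 8.56, 1.79, 7.81, 3.20 and 11.2% held a match to them, in that order. Among the members' 8 windows the P2rx7 window above held an AP-1 match at offsets -249 to -243 from the start site, and that of P2rx1 held a GATA match on the reverse strand at -242 to -237. A further P2rx7 window, at an inner start site, held a GATA match on the reverse strand at -58 to -53 and a PU.1 match at 3 to 10. No motif of the 6 matched in the windows of P2rx4, P2ry12, Adora2b and Entpd1. A match describes letters only.

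Library totals ranged from 29687341 to 37065564 counts, and 13707 genes were tested. Levels are normalised CPM, read counts relative to the scaled size of the library. Changes are log2 fold changes ± SE from a quasi-likelihood fit in edgeR, with p adjusted over all genes tested. The labels do not say whether replicates are separate animals or cultures, so the tests measure the spread between these libraries only. The 8 monocyte markers, Csf1r, Ly6c2 and Ccr2 among them, summed to 22490 to 24160 CPM in control. With adult platelets they summed to 24410 to 28830 and with P7 platelets to 26530 to 31550 CPM, all above control. The share of 13 platelet transcripts was 0.00246 to 0.00278% of counts in control, 0.0570 to 0.0972% with adult platelets and 0.104 to 0.120% with P7 platelets (exact two-sided permutation test for each pair of groups, p = 0.1, the smallest that 3 against 3 allows). In control libraries 11 of the 13 had counts, and Gp1bb and Gp6 had none. Most of the control counts were of Itgb3 (1719 in the group) and Itga2b (938), whereas Pf4 had 41 and Ppbp 20. Globin genes and Alas2, the red cell markers, summed to 0.000881 to 0.00117%, 0.0481 to 0.180% and 4.36 to 5.50%. Endothelial markers summed to 0.814 to 1.15, 1.28 to 2.85 and 4.55 to 6.10 CPM, T cell markers stayed at or below 3.50 and NK cell markers at or below 0.682 CPM, and the mast cell and basophil list (50.8 to 125 CPM) and the neutrophil list (69.6 to 221 CPM) overlapped between groups. The part of platelet and red cell RNA in each change below was not tested unless a value is given. Igkc, an immunoglobulin transcript, was at 410 to 772 CPM in 4 libraries (control replicate 1, adult platelet replicates 1 and 3, P7 platelet replicate 1) and at 123 to 172 CPM in the other 5. The 17 member changes called below came from groups that did not overlap, so their signs had to be the same within both sets of libraries. That split therefore does not test the part of Igkc in them.

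With adult platelets the P2Y receptor genes rose most, P2ry12 from near absence and P2ry6 by 4.83 times. P2rx1 rose 1.98 times, and P2rx7 fell. With P7 platelets the same 3 receptor genes were higher than control, both adenosine receptor genes rose as well, and P2rx7 and Entpd1 fell. Between the 2 kinds of platelets P2rx1, Adora2a and Adora2b were higher, and P2rx7, P2ry12 and Entpd1 lower, with P7 platelets. In counts, 3 of 8 members were called higher and 1 lower with adult platelets against control, where 14.3% of all genes tested were called higher and 12% lower. With P7 platelets against control 5 were called higher and 2 lower, against 29.9% and 29.3% of all genes. For P7 against adult platelets 3 were called higher and 3 lower, against 19.7% and 19.8%. The members' median log2 fold changes in these comparisons were 0.42, 1.47 and -0.07, and those of all genes 0.00, -0.01 and -0.02. The members were chosen with earlier results of these data known, and P2rx1 and P2ry12 were taken beforehand as marks of platelet RNA. Their counts and medians are therefore a description only. Both comparisons with control use the same 3 control libraries. Upper-quartile scaling moved the median of all genes for P7 platelets against control to -0.12. It also shifted the calls over all genes from 1966 higher and 1651 lower to 1620 and 1945 with adult platelets, from 4097 and 4014 to 3279 and 5012 with P7 platelets, and from 2706 and 2718 to 2106 and 3556 between the platelets. In bulk RNA, a change in the number of cells of a type and a change in RNA per cell cannot be told apart.

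**Figure D1:**
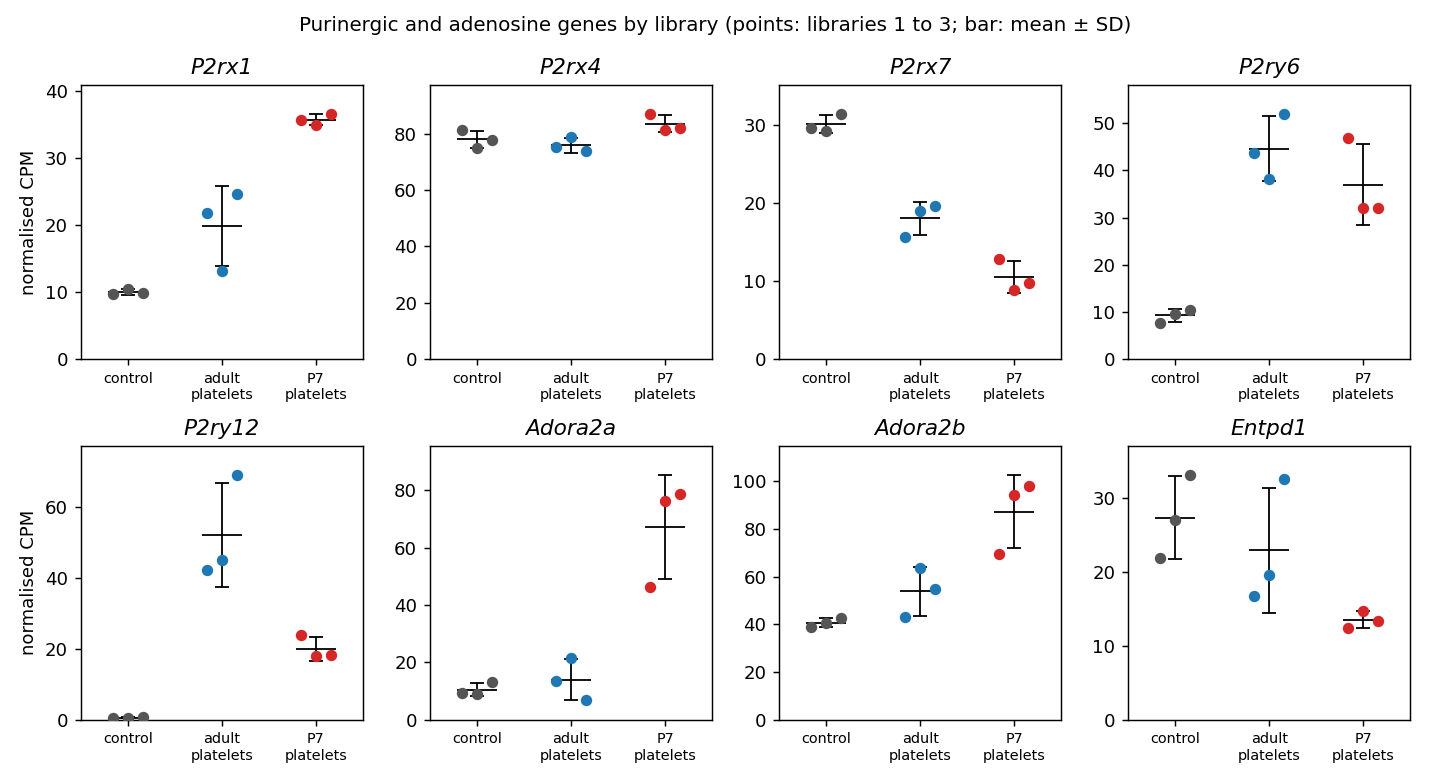
Normalised CPM (vertical axes, linear, each from 0) of the 8 genes in the 3 control, 3 adult platelet and 3 P7 platelet libraries, with 1 point per library and the mean ± SD as a bar. P2ry12 is near 0 in control and highest with adult platelets, Adora2a stands at 46.2 to 78.7 CPM with P7 platelets, P2rx7 steps down from group to group, and P2rx4 stays between 73.8 and 86.9 CPM.

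**Figure D2:**
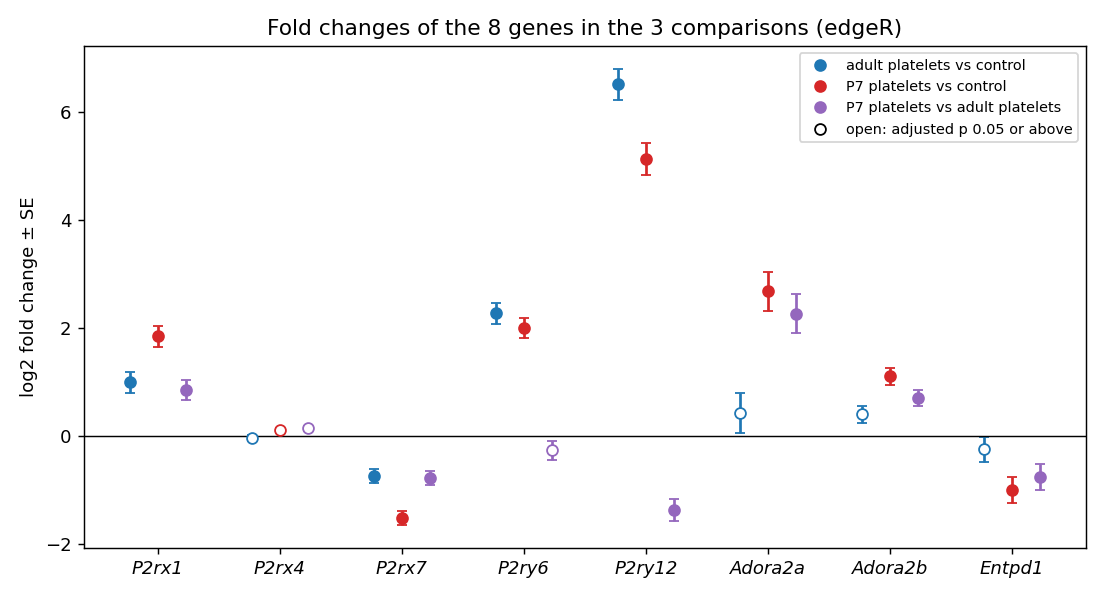
Log2 fold changes ± SE (vertical axis) of the 8 genes in the 3 comparisons from the edgeR fit; open points have an adjusted p of 0.05 or above. P2ry12 has the largest changes against control (6.51 and 5.13), and P2rx4 lies within 0.14 of zero in each comparison.

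P2rx7 encodes the ATP-gated channel that opens at high ATP and drives potassium efflux and inflammasome assembly in macrophages. It stood at 29.6, 29.2 and 31.4 CPM in the control libraries, at 15.6, 18.9 and 19.6 with adult platelets and at 12.8, 8.86 and 9.76 with P7 platelets. None of the 3 groups overlapped, and the P7 platelet libraries were lowest. The change was -0.74 ± 0.13 with adult platelets (adjusted p = 0.00334) and -1.52 ± 0.13 with P7 platelets (adjusted p = 1.48e-05). The difference between the platelets was itself called, at -0.78 ± 0.13 (adjusted p = 0.00174). Leaving out any 1 library kept these calls, with changes of -0.80 to -0.64 with adult and -1.69 to -1.41 with P7 platelets.

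P2rx4, the neighbouring gene, encodes an ATP-gated channel found at the surface and in lysosomes of macrophages. Its levels were 81.3, 75.0 and 77.7 CPM in control, 75.1, 78.8 and 73.8 with adult platelets and 86.9, 81.3 and 82.2 with P7 platelets. Control and adult platelet libraries overlapped, and the P7 platelet libraries lay just above both. No comparison passed the test (-0.04 ± 0.05, 0.10 ± 0.05 and 0.14 ± 0.05, with adjusted p = 0.605, 0.127 and 0.0581 in the order adult against control, P7 against control and P7 against adult). The last was called with DESeq2 size factors (adjusted p = 0.0391), with a minimum mean of 50 counts (0.0363), without adult platelet replicate 2 (0.0329) and with a term for the high-Igkc libraries (0.0426), and under upper-quartile scaling the P7 platelet change against control was 0.00. Within each library, counts of P2rx7 per count of P2rx4 were 0.386 ± 0.0196 in control, 0.238 ± 0.0292 with adult and 0.125 ± 0.0200 with P7 platelets (SD, n = 3 each), and the groups did not overlap.

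P2rx1 encodes the fast ATP-gated channel of platelets, and it was not confined to libraries with platelets. The control libraries held 387, 400 and 386 of its counts (9.68, 10.5 and 9.78 CPM), while platelet transcripts made up 0.00264% ± 0.000167 of their counts (SD, n = 3). With adult platelets it stood at 21.8, 13.1 and 24.6 CPM and with P7 platelets at 35.7, 34.8 and 36.5. The groups did not overlap, and the 3 adult platelet libraries spread most. P2rx1 rose by 0.99 ± 0.19 with adult platelets (adjusted p = 0.00544) and by 1.84 ± 0.19 with P7 platelets (adjusted p = 3.64e-05), and was higher with P7 than with adult platelets by 0.85 ± 0.18 (adjusted p = 0.00540). Among the libraries with low Igkc, where adult platelet replicate 2 is the only one of its group, the log2 ratio to control was 0.37, against 1.26 among those with high Igkc.

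Both the level of P2rx1 and the share of platelet transcripts were lowest in control and highest with P7 platelets. Among the P7 platelet libraries, replicate 1 had the highest share (0.120%) but not the highest P2rx1 level (35.7 CPM, against 36.5 in replicate 3). The part of platelet RNA in the P2rx1 level was not tested. Adult platelet replicate 2, the lowest of its group for P2rx1, also had the lowest platelet share of the group (0.0570%, against 0.0903 and 0.0972% in the other two). Per 1000 counts of the 13 platelet transcripts, P2rx1 had 23.4 to 26.6 counts with adult platelets, 27.0 to 30.6 with P7 platelets and 394 to 424 in control. These ratios include the P2rx1 level already present in control. The control ratio rests mainly on counts of Itgb3 and Itga2b, so it is not on the same footing as the other groups. Above the control mean, P2rx1 had 11.8, 3.12 and 14.6 CPM in the adult platelet libraries and 25.7, 24.9 and 26.5 CPM in the P7 platelet libraries.

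P2ry12 encodes the ADP receptor of platelets at which clopidogrel acts. Control libraries held 24, 14 and 29 counts (0.600, 0.368 and 0.735 CPM). With adult platelets P2ry12 stood at 42.2, 45.1 and 68.9 CPM and with P7 platelets at 23.9, 18.1 and 18.1. The adult platelet libraries were all above the P7 platelet libraries, and adult platelet replicate 3 was highest. The rise over control was 6.51 ± 0.29 with adult platelets (90.9-fold, adjusted p = 2.28e-06) and 5.13 ± 0.30 with P7 platelets (35.0-fold, adjusted p = 1.70e-06). P7 against adult platelets gave -1.38 ± 0.20 (adjusted p = 0.000774).

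Both platelet receptor genes thus differed between the kinds of platelets in opposite directions. Of the 13 platelet transcripts, 11 were called higher with P7 than with adult platelets, by 0.53 to 1.67, a range that holds the 0.85 of P2rx1. Pf4, a chemokine gene, was not called (0.31 ± 0.18, adjusted p = 0.214). Ppbp, the precursor of another platelet chemokine, was the one called lower (-1.96 ± 0.16, adjusted p = 4.60e-05). P2ry12, also lower with P7 platelets, went against the direction of the 11. Whether the differences of P2rx1 and P2ry12 came from platelet RNA was not tested. Per 1000 platelet counts P2ry12 had 48.5 to 80.4 counts with adult and 15.2 to 18.1 with P7 platelets. Counts of P2ry12 per count of P2rx1 were 1.94 to 3.44 with adult platelets and 0.497 to 0.669 with P7 platelets, against 0.0350 to 0.0751 in control.

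**Figure D3:**
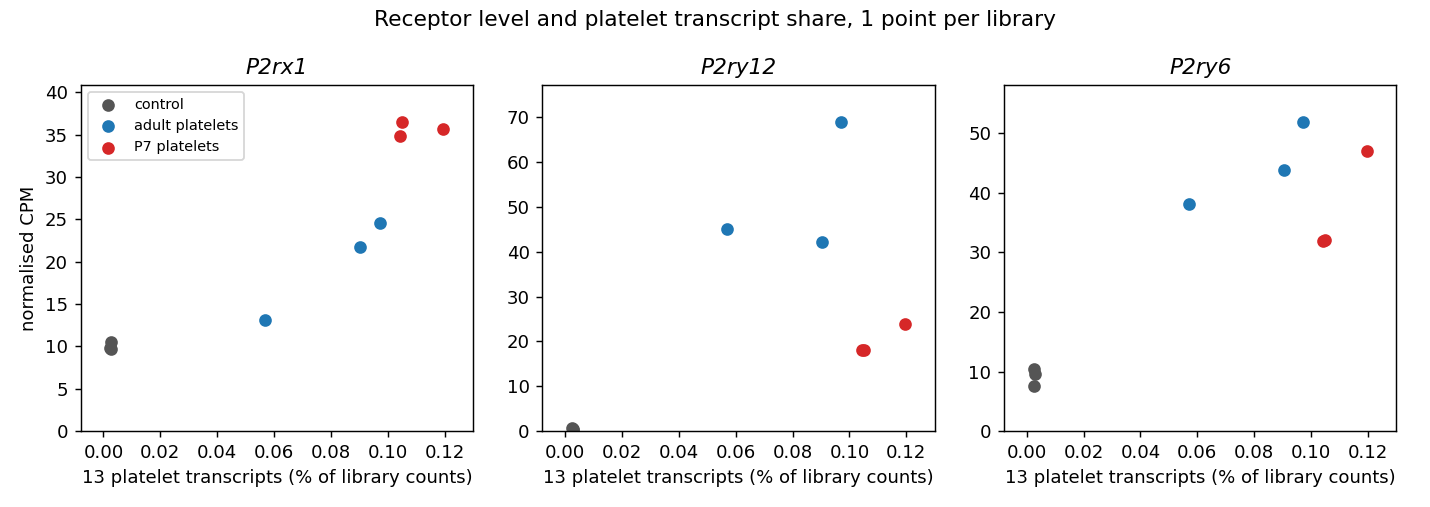
Normalised CPM of P2rx1, P2ry12 and P2ry6 (vertical axes, linear) against the share of 13 platelet transcripts in percent of library counts (horizontal axes), 1 point per library and 9 in each panel. P2rx1 is highest in the P7 platelet libraries, which have the highest shares, whereas P2ry12 is highest in the adult platelet libraries.

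P2ry6 encodes the receptor for UDP, which on macrophages and microglia promotes uptake of debris and chemokine release. Its levels were 7.65, 9.63 and 10.4 CPM in control, 43.8, 38.2 and 51.9 with adult platelets and 47.0, 31.9 and 32.1 with P7 platelets. All libraries with platelets were above all control libraries, and the 2 platelet groups overlapped. P2ry6 rose by 2.27 ± 0.19 with adult platelets (adjusted p = 5.75e-05) and by 2.0 ± 0.19 with P7 platelets (adjusted p = 2.11e-05). Between the platelets the change was -0.27 ± 0.17 (adjusted p = 0.250), and it was called without P7 platelet replicate 1 (-0.48, adjusted p = 0.0304). Over the 9 libraries log2 CPM of P2ry6 and P2ry12 had a Pearson r of 0.98, a description of libraries that fall into 3 groups. Whether P2ry6 transcripts came from monocytes or from platelets was not tested. Per 1000 platelet counts it had 50.3 to 68.1 counts with adult, 26.9 to 35.5 with P7 platelets and 312 to 452 in control. The control ratio again rests mainly on counts of Itgb3 and Itga2b.

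The adenosine receptor genes separated the 2 kinds of platelets. Adora2a, which encodes a receptor of high affinity for adenosine, stood at 9.38, 8.90 and 13.1 CPM in control, at 13.5, 21.6 and 7.06 with adult platelets and at 46.2, 76.4 and 78.7 with P7 platelets. The adult platelet libraries spread on both sides of the control range, and the P7 platelet libraries were all far above both groups. The rise with P7 platelets was 2.68 ± 0.36 over control (6.41-fold, adjusted p = 0.000196) and 2.26 ± 0.36 over adult platelets (4.77-fold, adjusted p = 0.00121). With adult platelets the change of 0.43 ± 0.37 did not pass (adjusted p = 0.429), and it ran from -0.03 without adult platelet replicate 2 to 0.75 without adult platelet replicate 3.

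Adora2b encodes the receptor that answers to high adenosine. It had 38.8, 40.5 and 42.7 CPM in control, 43.0, 63.7 and 54.8 with adult platelets and 69.6, 94.2 and 98.0 with P7 platelets, with no overlap between any groups. Adora2b rose by 1.10 ± 0.16 with P7 platelets (adjusted p = 0.000250) and was higher than with adult platelets by 0.70 ± 0.15 (adjusted p = 0.00636). The change with adult platelets, 0.40 ± 0.16, missed the threshold (adjusted p = 0.0846). It was called without adult platelet replicate 1 (0.54, adjusted p = 0.0282) and without P7 platelet replicate 1 (0.41, adjusted p = 0.0414), with the DESeq2 Wald test (adjusted p = 0.0455), without a filter (adjusted p = 0.0338) and with the high-Igkc term (0.50, adjusted p = 0.00641). Counts of Adora2a per count of Adora2b were 0.220 to 0.307 in control, 0.129 to 0.338 with adult platelets and 0.663 to 0.811 with P7 platelets. For both genes P7 platelet replicate 1 was the lowest of its group. The P7 platelet libraries also held the red cell transcripts given above (4.36 to 5.50% of counts), and their part in these changes was not tested.

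Entpd1 encodes CD39, which removes the ATP and ADP that the P2 receptors sense. It stood at 21.9, 27.0 and 33.1 CPM in control, at 16.7, 19.5 and 32.5 with adult platelets and at 12.5, 14.7 and 13.4 with P7 platelets. The adult platelet libraries overlapped with control through replicate 3, and the P7 platelet libraries were below all others. Entpd1 fell by 1.01 ± 0.24 with P7 platelets (log2 fold change -1.01, adjusted p = 0.00519). The P7 platelet libraries were also lower than those with adult platelets (-0.76 ± 0.24, adjusted p = 0.0320). The test no longer passed when adult platelet replicate 3 was left out (-0.42, adjusted p = 0.0865), without P7 platelet replicate 1, 2 or 3 (adjusted p = 0.0844, 0.0642 and 0.0877) and in limma-voom (adjusted p = 0.0583). Adult platelets against control gave -0.25 ± 0.23 (adjusted p = 0.462), and -0.59 without adult platelet replicate 3 (adjusted p = 0.0321).

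Per exon length, the order of the 8 transcripts changed from group to group. The scale is CPM per kb of exon in GENCODE M21, which may not be the annotation behind the counts. In control, Adora2b was highest at 22.1 ± 1.05 CPM per kb, followed by P2rx4 at 11.1 ± 0.445. P2rx7 (5.03 ± 0.193), Entpd1 (4.90 ± 1.01), P2rx1 (3.80 ± 0.171), Adora2a (3.42 ± 0.750) and P2ry6 (3.20 ± 0.492) came next, each overlapping with its neighbour in the order, and P2ry12 was last at 0.223 ± 0.0729 (SD, n = 3 each). With adult platelets Adora2b (29.2 ± 5.63), P2ry12 (20.5 ± 5.76) and P2ry6 (15.5 ± 2.39) led, each overlapping with the next. P2rx4 (10.8 ± 0.370) stood apart, and P2rx1 (7.55 ± 2.28), Adora2a (4.58 ± 2.38), Entpd1 (4.11 ± 1.51) and P2rx7 (3.02 ± 0.358) followed in a run of overlapping neighbours. With P7 platelets Adora2b (47.3 ± 8.35) and then Adora2a (21.9 ± 5.94) led without overlap. P2ry6 (12.8 ± 2.99) overlapped with both P2rx1 (13.6 ± 0.313) and P2rx4 (11.9 ± 0.429), which lay apart from each other, and P2ry12 (7.86 ± 1.32), Entpd1 (2.43 ± 0.206) and P2rx7 (1.76 ± 0.347) came last, each apart from the next.

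**Figure D4:**
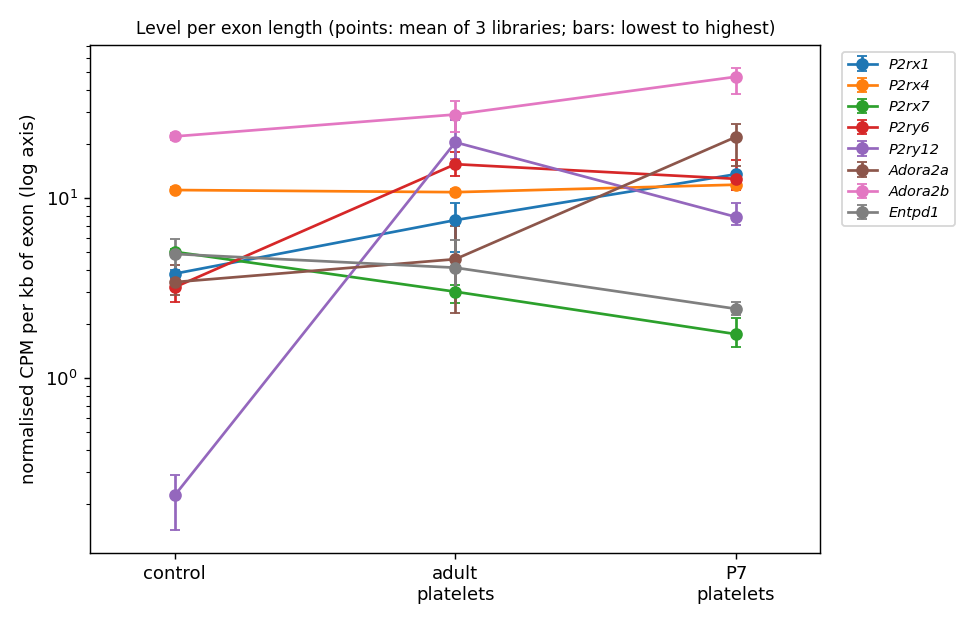
Normalised CPM per kb of exon (vertical axis, log scale) of the 8 genes in control, adult platelet and P7 platelet libraries; points are means of 3 libraries, bars run from the lowest to the highest library, and lines join the groups of 1 gene. Adora2b has the highest mean in each group, P2ry12 rises from 0.223 in control to 20.5 with adult platelets, and P2rx7 goes from the third place to the last.

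The genes whose log2 CPM followed each member most closely over the 9 libraries were taken from 9205 tested genes with a mean log2 CPM of at least 2. P2ry12 was most like Ppbp (Pearson r = 0.998), Cd226 (0.997) and Pacsin2 (0.995), and P2rx1 most like Nomo1 (0.991), Qsox1 (0.990) and Zyx (0.986). P2ry6 went with Mgat4a (0.993), Mfap3l (0.992) and Tspan2 (0.989). Adora2a went with Plekho2 (0.996), Mafg (0.996) and Bcl2a1a (0.995), the last of a family of near-identical copies, and Adora2b with Jak2 (0.996), Smndc1 (0.991) and Dnaja2 (0.991). For P2rx7 these were Manba (0.994), Myo7a (0.993) and Brd9 (0.993), for Entpd1 Fem1c (0.984), Cdc6 (0.975) and Elmod2 (0.975), and for P2rx4, the least variable, Mink1 (0.935), Ints2 (0.926) and Smc5 (0.921). All points share 3 groups, so these values describe likeness only.

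Of 67 other genes of nucleotide and adenosine signalling, 56 passed the filter. With adult platelets 5 of the 56 were called higher and 8 lower, with P7 platelets 21 and 17, and between the platelets 17 and 16. Over all genes tested these shares were 14.3 and 12%, 29.9 and 29.3%, and 19.7 and 19.8%, and the list's counts are to be read against them. The list's medians were 0.00, -0.01 and -0.03, against 0.00, -0.01 and -0.02 for all genes. Counts by role below, of 4 to 13 genes each, have the same background. Of the 13 other receptor genes 8 were tested. Adora1 had no count in any of the 9 libraries, which allows a level of up to 0.00986 CPM (3 counts over all libraries, counting error only), and P2rx2, P2rx5, P2rx6 and P2ry4 had too few counts to be tested, at most 13 in a group. P2rx3 had 36 to 56 counts per group and was not called, though without P7 platelet replicate 1 or adult platelet replicate 3 it was for P7 platelets against control (adjusted p = 0.0250 and 0.0494).

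Among the P2Y receptor genes, P2ry2, which encodes a receptor for ATP and UTP, rose like P2ry6 with both kinds of platelets. It went from 1.96 ± 0.317 CPM in control to 8.28 ± 1.77 with adult and 7.97 ± 2.7 with P7 platelets (SD, n = 3 each). The changes over control were 2.07 ± 0.26 (adjusted p = 0.000608) and 2.02 ± 0.26 (adjusted p = 0.000139), and between the platelets -0.05 ± 0.24 (adjusted p = 0.883). P2ry1, the other ADP receptor gene of platelets, stood at 15.6 ± 2.77, 16.6 ± 3.74 and 8.74 ± 1.15 CPM. It fell with P7 platelets (-0.83 ± 0.18, adjusted p = 0.00338) and had 0.10 ± 0.18 with adult platelets (adjusted p = 0.725). P2ry13, which encodes a further ADP receptor, rose from 1.07 ± 0.0713 to 3.25 ± 0.733 CPM with P7 platelets (1.60 ± 0.24, adjusted p = 0.000403). With adult platelets P2ry13 had 1.78 ± 0.476 CPM (0.73 ± 0.25, adjusted p = 0.0538), which was called without adult platelet replicate 1 or P7 platelet replicate 1 (adjusted p = 0.0122 to 0.0459 over the 6 alternatives that called it).

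P2ry10b and its relative P2ry10 are named with the P2Y receptors, although the ligand known for P2ry10 is a lysophospholipid. P2ry10b stood at 67.0 ± 2.57 CPM in control, 48.1 ± 5.41 with adult and 92.6 ± 5.95 with P7 platelets. It fell with adult platelets (-0.48 ± 0.08, adjusted p = 0.00357) and rose with P7 platelets (0.47 ± 0.08, adjusted p = 0.000992), and the difference between the platelets was 0.94 ± 0.08 (adjusted p = 7.43e-05). P2ry10 (-0.17 ± 0.14 and -0.23 ± 0.14) and P2ry14 (-0.26 ± 0.28 and 0.41 ± 0.28) were not called against control. Reads can be split between P2ry10 and P2ry10b, which are related in sequence. Adora3, the remaining adenosine receptor gene with enough counts, had 1.38 ± 0.418, 2.52 ± 0.395 and 1.37 ± 0.202 CPM. It rose with adult platelets (0.86 ± 0.24, adjusted p = 0.0282), a call that was lost without control replicate 2 or 3 or adult platelet replicate 1 or 3 (adjusted p = 0.0628 to 0.0937). P7 against adult platelets gave -0.87 ± 0.24 for Adora3 (adjusted p = 0.0194), lost without adult platelet replicate 3 or P7 platelet replicate 2 (adjusted p = 0.0659 to 0.0731).

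Enzymes at the cell surface make adenosine from released nucleotides. Nt5e, which encodes CD73, rose with adult platelets from 17.5 ± 5.04 to 60.9 ± 16.9 CPM (1.80 ± 0.26, adjusted p = 0.00148). With P7 platelets Nt5e had 32.7 ± 7.81 CPM (0.90 ± 0.26, adjusted p = 0.0153), a call lost without P7 platelet replicate 1 (adjusted p = 0.0578). The difference of -0.90 ± 0.26 between the platelets (adjusted p = 0.0209) was lost without adult platelet replicate 3 or P7 platelet replicate 2 or 3 (adjusted p = 0.0749 to 0.0807). Cd38, whose product consumes NAD at the cell surface, was at 2.62 ± 0.764 CPM in control, 1.71 ± 0.304 with adult and 14.9 ± 3.07 with P7 platelets (2.5 ± 0.23 for P7 platelets against control, adjusted p = 1.85e-05, and 3.12 ± 0.24 against adult platelets, adjusted p = 3.58e-05). Of the 8 tested ectonucleotidases and related hydrolases 4 were called higher and 2 lower with P7 platelets. Entpd5 and Entpd6, relatives of Entpd1 with products inside the cell or secreted, fell with P7 platelets (-0.84 ± 0.09 and -0.82 ± 0.09, adjusted p = 4.46e-05 and 6.88e-05). Both also fell with adult platelets (Entpd5 -0.30 ± 0.09, adjusted p = 0.0333, and Entpd6 -0.53 ± 0.09, adjusted p = 0.00353). The Entpd5 call was lost without control replicate 1, 2 or 3 or adult platelet replicate 1 or 2 (adjusted p = 0.0649 to 0.0976).

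Of 8 genes of adenosine uptake and turnover, 2 were called higher and 1 lower with P7 platelets. The nucleoside transporter gene Slc29a2 rose (0.82 ± 0.23, adjusted p = 0.0115), and Ahcy, which encodes the hydrolase that frees adenosine from S-adenosylhomocysteine, fell (-0.34 ± 0.07, adjusted p = 0.00205). Slc29a3, a lysosomal nucleoside transporter gene, rose with adult platelets (0.54 ± 0.13, adjusted p = 0.0155), a call that did not hold without control replicate 2 or 3 (adjusted p = 0.0562 to 0.0575). The difference of Slc29a3 between the platelets was -0.67 ± 0.13 (adjusted p = 0.00343). Dpp4, an adenosine deaminase-binding peptidase gene, was not called against control with either kind of platelets (-0.40 ± 0.21 and 0.35 ± 0.21, adjusted p = 0.201 and 0.179), though the latter was called without P7 platelet replicate 1 (0.56, adjusted p = 0.0171) and with the high-Igkc term (0.32, adjusted p = 0.0227). P7 against adult platelets gave 0.75 ± 0.21 for Dpp4 (adjusted p = 0.0207), lost without adult platelet replicate 1 or 3 or P7 platelet replicate 2 or 3 (adjusted p = 0.0632 to 0.0806).

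The 4 genes of ATP release had 3 lower and 1 higher with P7 platelets. The channel gene Panx1 fell from 16.3 ± 0.491 to 11.9 ± 0.250 CPM (-0.45 ± 0.06, adjusted p = 0.000220), the vesicular nucleotide transporter gene Slc17a9 fell by 0.98 (-0.98 ± 0.15, adjusted p = 0.000509) and Lrrc8a, a volume-regulated channel gene, changed by -0.39 ± 0.10 (adjusted p = 0.00829). Gja1, the connexin 43 gene, rose from 1.0 ± 0.245 to 2.12 ± 0.236 CPM (1.08 ± 0.22, adjusted p = 0.00200). None of the 4 was called with adult platelets in the reported edgeR fit (adjusted p = 0.0570 to 0.598), although 2 of them, Panx1 and Slc17a9, had an unadjusted p below 0.05. With upper-quartile scaling both were called (adjusted p = 0.0476 each). Slc17a9 was also called with a minimum mean of 50 counts (adjusted p = 0.0400) and by limma-voom (adjusted p = 0.0312), and DESeq2 called none.

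Of 8 genes listed under P2X7 output, 6 were called higher and 2 lower with P7 platelets, against 29.9% and 29.3% of all genes tested. These are mRNA levels of genes that act after the channel, and its activity was not measured. Nlrp3, the inflammasome sensor gene, rose by 1.18 ± 0.11 (adjusted p = 2.22e-05) and the cytokine genes Il18 by 1.99 ± 0.17 (adjusted p = 1.40e-05) and Il1b by 1.58 ± 0.17 (adjusted p = 5.16e-05). Nek7, which encodes the partner of NLRP3, fell with both (-0.34 ± 0.06 with adult, adjusted p = 0.00364, and -0.57 ± 0.06 with P7 platelets, adjusted p = 4.69e-05). In the cAMP arm 3 of 13 genes were called higher and 5 lower with P7 platelets, counts near that background. Gnas, the gene of the stimulatory G protein to which both Adora2 receptors couple, rose from 385 ± 12.9 to 702 ± 21.7 CPM (0.87 ± 0.06, adjusted p = 3.12e-06), and the phosphodiesterase gene Pde4b rose by 1.34 ± 0.20 (adjusted p = 0.000301). The adenylyl cyclase genes Adcy7 (-0.48 ± 0.07, adjusted p = 0.000396) and Adcy9 (-0.94 ± 0.15, adjusted p = 0.000595) fell. Adcy7 fell with adult platelets as well (-0.67 ± 0.07, adjusted p = 0.000303). So did Adcy9 (-0.57 ± 0.15, adjusted p = 0.022), a call lost in 6 alternatives (adjusted p = 0.056 to 0.072). Gnas rose with adult platelets (0.20 ± 0.06, adjusted p = 0.0300), a call lost in 9 alternatives (adjusted p = 0.051 to 0.093). In the arm of P2Y G proteins and calcium signalling 2 of 7 genes were called higher and 3 lower with P7 platelets. The G protein gene Gna13 had 0.66 ± 0.08 (adjusted p = 0.000123) and Plcb3 0.19 ± 0.05 (adjusted p = 0.0119, and 0.189 with upper-quartile scaling). Plcb2 had -1.0 ± 0.14 (adjusted p = 0.000235) and Itpr2 -0.51 ± 0.12 (adjusted p = 0.00527). With adult platelets the reported edgeR fit called none of the 7, of which Gna13 had an unadjusted p below 0.05. Gna13 was called by the DESeq2 Wald test (adjusted p = 0.0367) and in edgeR without adult platelet replicate 1 (0.0251). It was also called in edgeR with the replicate block (0.0157) and with the high-Igkc term (0.00311). The other 3 named genes of this arm were not called there by DESeq2, nor any of the 4 by limma-voom.

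**Figure D5:**
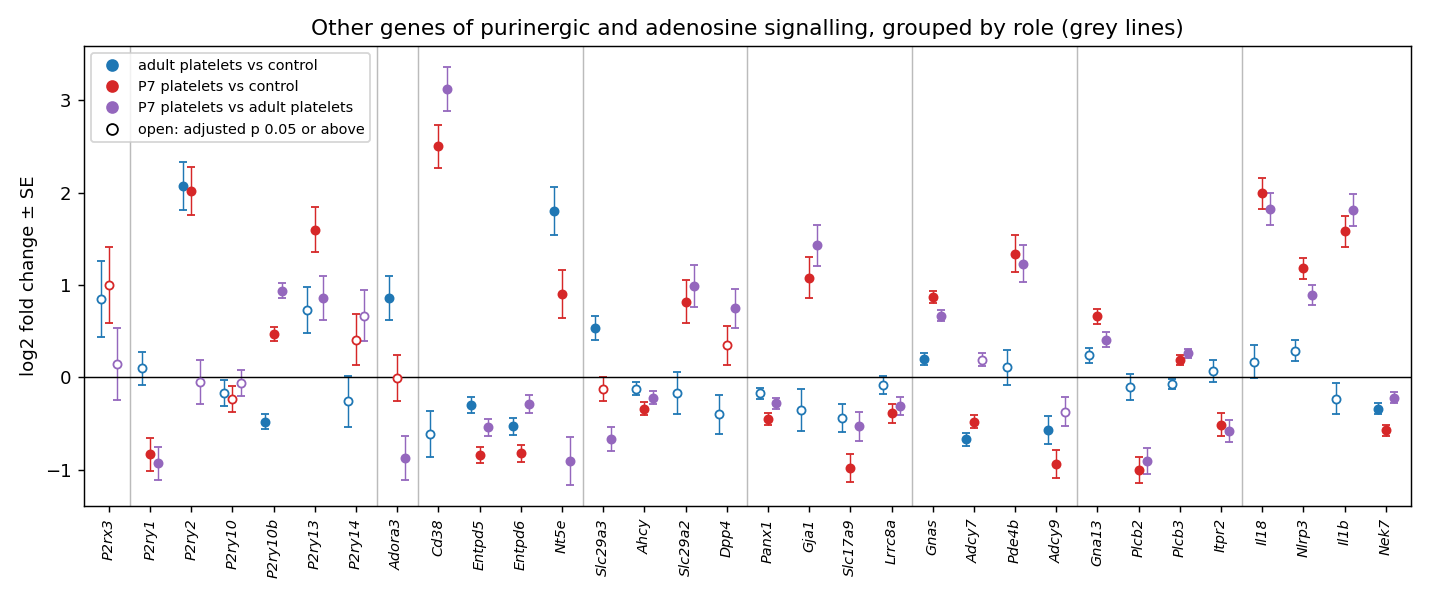
Log2 fold changes ± SE (vertical axis) in the 3 comparisons for the named genes of nucleotide and adenosine signalling other than the 8, in groups by role from P2X receptors on the left to P2X7 output on the right; open points have an adjusted p of 0.05 or above. Cd38 reaches 3.12 for P7 against adult platelets, P2ry2 is near 2 with both kinds of platelets, and Nt5e is highest with adult platelets (1.80).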

How the data were processed

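Each library was measured by mRNA sequencing as single-end reads from a stranded kit, per the labels' protocols. The authors deposited 1 file per library with whole-number read counts per gene symbol and no normalisation. Tools listed in the submitters' processing notes, without their roles, are STAR 2.7.6a, featureCounts, Subread 2.0.1, Salmon 1.3.0 and fastp 0.20.1. Build, annotation and strand setting behind the counts were not given in the labels or file headers. Of 55367 symbols, 53365 match gene names of GENCODE M21.

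The counts were fitted with edgeR 4.0.16 (R 4.3.3): all 9 libraries, 1 mean per group, TMM scaling (factors 0.882 to 1.10), filterByExpr with a minimum count of 10, the quasi-likelihood test with 6 residual degrees of freedom, and Benjamini-Hochberg adjustment over 13707 genes. A gene was called at an adjusted p below 0.05. Normalised CPM use the TMM-scaled totals. The method was tested on simulated data. Values after ± are SE of the fit or SD between libraries. The upper limit given for Adora1 covers counting error only, and reads carry no molecular identifiers.

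Named are all members, every other receptor of the pathway list, up to 4 genes of each other role by smallest p, and the 3 genes most like each member (log2 CPM with a prior count of 2). The members and the lists were chosen with earlier results of these data known. Alternatives were DESeq2 size factors, upper-quartile scaling, no filter, a mean of at least 50 counts, limma-voom (limma 3.58.1), the Wald test of DESeq2 1.42.0, a replicate block, fits of 2 groups alone, leaving out mitochondrial, erythroid and platelet transcripts, another denominator for the platelet share, and leaving out each library. A term that marks the 4 high-Igkc libraries was added after seeing the data. No library was left out of the reported values.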

Additional observations from a re-analysis of the deposited data

Results flagged for a closer look

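P2ry10b, a receptor gene related to the P2Y family, was called lower with adult platelets (-0.48) and higher with P7 platelets (0.47) than in the same control libraries. In the reported fit it was the one gene among the members and the 56 other genes tested that was called in opposite directions (another, Dpp4, was so called when replicate numbers were fitted as a block), and the difference between the platelets, 0.94 ± 0.08 on the log2 scale, was itself called by edgeR (adjusted p = 7.43e-05), with all 3 P7 platelet libraries above all 3 with adult platelets. Part of its reads may belong to P2ry10, which was not called in any of the 3 comparisons.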

How the results depend on the processing

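Over 19 alternatives the members' 24 fold changes gave 456 values, of which 439 kept their call and direction, 12 passed the threshold where the reported value had not, 5 no longer passed it and none of the called ones reversed. The 5 all concern Entpd1 between the platelets, and the 12 concern Adora2b (6) and Entpd1 (1) with adult platelets and P2rx4 (4) and P2ry6 (1) between the platelets, each with its values in the report except that of the block below. The number of members called stayed within 1.5 times of the reported 4, 7 and 6 throughout. Leaving out 1 library at a time, the number of all genes called with adult platelets against control, 3617, ran from 2031 without control replicate 2 and 2207 without control replicate 3 to 3774 without P7 platelet replicate 1. Replicate numbers are shared between groups. The deviations from the group means had a correlation above 0.1 in 7 of 9 same-numbered pairs of libraries (-0.08 to 0.58 over the 9). Pairs with different numbers ran from -0.56 to 0.43. The replicate 1 libraries had 0.49 to 0.58 with each other, and 4 of 9 libraries were closest to their own number in both other groups. The labels do not say whether a number marks a pair, so the reported fit does not use it. Whether libraries of 1 number share a source was not tested. With the number as a replicate block 5, 7 and 6 members and 4228, 8565 and 5965 genes were called, and Adora2b passed with adult platelets (0.39, adjusted p = 0.0179). The high-Igkc term called 4213 genes with adult platelets. Under the replicate block Dpp4 was called lower with adult platelets (-0.41, adjusted p = 0.0254) and higher with P7 platelets (0.33, adjusted p = 0.0280). The platelet share moved by less than its spread with the other denominator or without any library. With 3 libraries per group, small changes such as those of P2rx4 are at the edge of what these data resolve.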
